A study of Mus musculus with 2 samples.

Results

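Messenger RNA of 6 matrix metalloproteinases (Mmp8, Mmp9, Mmp12, Mmp13, Mmp14 and Mmp19), 3 tissue inhibitors of metalloproteinases (Timp1, Timp2 and Timp3) and fibronectin (Fn1) was counted in mouse bone marrow-derived dendritic cells. The genes were chosen by symbol, with earlier results of these data known, and all 10 were found among the 23238 symbols of the count files. One library came from cells given 100 nM UNE-C1 for 24 h, and 1 came from control cells. UNE-C1, a part of the enzyme cysteinyl-tRNA synthetase, is known to act on Toll-like receptors. The sources used here do not say what the control cells received. Both cultures were grown from the marrow of female C57BL/6 mice aged 7 weeks, in 20 ng/ml GM-CSF renewed on day 3. The non-adherent and loosely attached cells were taken as immature dendritic cells on day 6. Nor do they say how many mice stand behind each library or whether marrow was pooled.

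Matrix metalloproteinases are zinc-dependent enzymes that are made as inactive precursors and cut collagens, elastin, fibronectin and many cytokines. TIMPs bind their active sites and block them. Fibronectin is a large adhesive glycoprotein that cells bind through integrins and that several of these enzymes degrade. Myeloid cells use the enzymes to pass through tissue, and in mice Mmp9 is known to serve the migration of dendritic cells out of the skin.

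The UNE-C1 library held 15975821 reads and the control library 14857198 reads. Levels are given as CPM (read counts scaled to library size), after scaling the libraries to each other by edgeR's TMM method. The libraries were read from the 3' end of transcripts, so a gene's reads are not expected to scale with its length and no length scaling was made. A gene was compared where it had at least 50 reads in at least 1 library, which 10469 genes and all 10 of these did. It was called higher or lower where the UNE-C1 level was at least 2-fold above or below the control level on the log2(CPM + 1) scale. There was 1 library per group, so no test was possible, and every difference below is between 2 libraries without a replicate check. Intervals are 95% intervals of counting error only: exact Poisson for a read count, exact conditional binomial for a ratio of CPM. In such bulk samples, fewer cells of a type and less RNA per cell cannot be told apart.

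Markers of the labelled cell type were present in both libraries. All 13 conventional dendritic cell markers passed the floor, of which 2 were called lower and 2 higher. Itgax, which encodes CD11c, had 3493 reads in the UNE-C1 library and 12693 reads in the control library, and Clec9a had 34 and 175 reads. The higher ones were Irf8, with 14059 reads in the UNE-C1 library and 6634 reads in the control library, and Xcr1, with 189 and 54 reads. With total counts Irf8 was not called and Flt3 (log2 fold change -0.83, then -1.12) was called lower, which gave 1 higher and 3 lower. The 13 markers summed to 11745 CPM in the UNE-C1 library and 12339 CPM in the control library. Most of this came from the MHC class II genes H2-Aa and H2-Ab1 and the invariant chain Cd74, which stayed within 2-fold. The files also held reads of neutrophil, macrophage and eosinophil genes, for which values or the counts and sums of their lists are given below.

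Of the 10 genes, 6 were at least 2-fold lower in the UNE-C1 library, against 9.42% of all genes compared. At least 2-fold higher were 2, Timp1 and Timp3, against 9.31% of all genes. In either direction these were 8 of 10, where 18.7% of all genes compared passed 2-fold. Because the 10 genes were chosen with earlier results of these data known, these shares are a description and not a test. The 6 lower genes were Fn1, Timp2, Mmp9, Mmp13, Mmp8 and Mmp12, while Mmp14 and Mmp19 stayed within 2-fold. The median log2 fold change was -1.83 over the 10 genes and -0.00 over all genes compared. Scaled by total counts instead, the median over all genes was -0.33, and 1 of the 10 genes was called higher and 7 lower. Over all genes that scaling gave 657 higher and 1693 lower calls, against 975 and 986 with TMM.

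The order of the levels differed between the libraries. From high to low in CPM it was Mmp12, Mmp14, Mmp8, Timp1, Mmp9, Mmp13, Mmp19, Timp2, Fn1 and Timp3 in the UNE-C1 library. In the control library it was Mmp12, Mmp8, Mmp9, Mmp14, Fn1, Mmp13, Timp2, Mmp19, Timp1 and Timp3. The Poisson intervals of neighbours in these orders overlapped for Mmp9 and Mmp13 in the UNE-C1 library and for Mmp14 and Fn1 in the control library. The spread over replicates is not known for any of them.

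**Figure D1:**
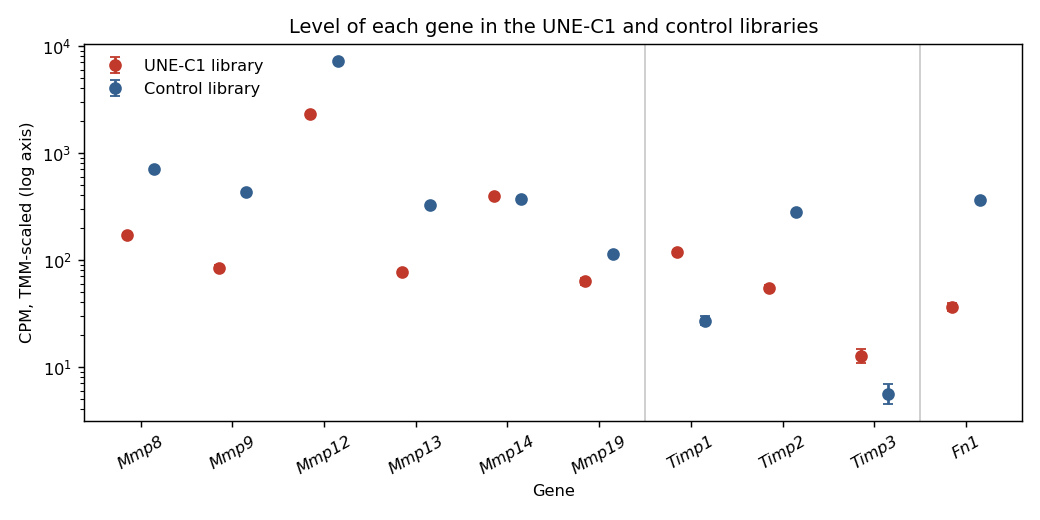
Level of each gene in CPM on a log axis, with the UNE-C1 library in red and the control library in blue. Each point is 1 library and bars are 95% Poisson intervals of the read count, often smaller than the point. Mmp12 is the highest in both libraries, and Timp1 and Timp3 stand higher in the UNE-C1 library while Fn1, Timp2, Mmp8, Mmp9, Mmp12 and Mmp13 stand lower.

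Mmp13, Mmp12 and Mmp8 lie in the metalloproteinase cluster on chromosome 9, and the promoters of these and of Timp1 are shown because the first 3 were lower and Timp1 higher in the UNE-C1 library. The sequences are RefSeq's for build GRCm38.p6, each covering the 250 bases before an annotated transcription start, 5′ to 3′. RefSeq promoters matched 7 of the 10 genes. Capitals mark the AP-1 motif TGANTCA, which reads the same on both strands and was found in 6.75% of the 32851 promoter windows of that length. The windows are chr9:7272264-7272513 for Mmp13, chr9:7347124-7347373 for the second of 2 annotated starts of Mmp12, chr9:7558179-7558428 for Mmp8 and chrX:20869916-20870165 for Timp1, all on the plus strand. The Mmp12 window shown is the one with an AP-1 match. That of the first start, chr9:7344147-7344396, has none and is not shown, although it holds the first base of the gene's annotated span, 7344381. The windows of Timp2, which was also lower, Timp3, which was also higher, and Mmp14 are not shown either.
Mmp13: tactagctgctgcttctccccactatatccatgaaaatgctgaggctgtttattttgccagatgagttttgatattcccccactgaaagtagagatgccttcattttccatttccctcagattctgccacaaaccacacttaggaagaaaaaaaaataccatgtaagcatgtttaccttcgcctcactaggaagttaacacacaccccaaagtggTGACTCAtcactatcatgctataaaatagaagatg
Mmp12: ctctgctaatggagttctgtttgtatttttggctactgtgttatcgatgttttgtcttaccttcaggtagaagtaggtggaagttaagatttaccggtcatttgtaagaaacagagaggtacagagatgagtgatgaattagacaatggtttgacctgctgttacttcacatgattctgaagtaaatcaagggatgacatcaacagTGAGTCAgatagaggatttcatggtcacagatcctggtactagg
Mmp8: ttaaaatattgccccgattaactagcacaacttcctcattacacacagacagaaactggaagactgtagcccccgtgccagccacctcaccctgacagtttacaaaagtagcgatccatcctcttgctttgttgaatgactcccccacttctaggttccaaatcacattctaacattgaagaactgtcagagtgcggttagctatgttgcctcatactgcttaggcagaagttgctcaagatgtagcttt
Timp1: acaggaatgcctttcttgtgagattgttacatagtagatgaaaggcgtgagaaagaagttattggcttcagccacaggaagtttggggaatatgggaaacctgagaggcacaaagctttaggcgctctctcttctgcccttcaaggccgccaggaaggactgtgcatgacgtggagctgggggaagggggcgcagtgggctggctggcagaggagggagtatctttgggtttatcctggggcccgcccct

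The AP-1 motif lay 35 to 29 bases before the Mmp13 start and 44 to 38 bases before the second Mmp12 start. It was not matched in the windows of Mmp8, Timp1, Timp2, Timp3 and Mmp14, nor before the first Mmp12 start. The ETS motif AGGAAG, searched on both strands, was found in 29.5% of all promoter windows. It was matched 2 times before Mmp13, 2 times before Timp1, and 1 time each before Mmp8, Timp3, Mmp14 and the first Mmp12 start. None of the AP-1 matches overlapped an ETS match. These matches are letters in a window and do not show binding.

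Mmp12, the macrophage elastase, which degrades elastin and fibronectin, was the most abundant of the metalloproteinases in both libraries. It had 32838 reads (2315 CPM) in the UNE-C1 library and 119623 reads (7149 CPM) in the control library. It ranked 43rd of all genes by reads in the UNE-C1 library and 8th in the control library, where it took 0.805% of all reads. The UNE-C1 level was 3.09-fold lower (interval 3.05 to 3.13). The gene spans bases 7344381 to 7369499 of chromosome 9 (plus strand; all gene positions here are those of GRCm38, which is mm10).

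Mmp13, or collagenase 3, cuts fibrillar collagens. It had 1083 reads (76.4 CPM) in the UNE-C1 library and 5397 reads (323 CPM) in the control library, 4.22-fold lower (interval 3.96 to 4.51). Mmp8, the collagenase that neutrophils store in their granules, had 2443 reads (172 CPM) in the UNE-C1 library and 11872 reads (709 CPM) in the control library, 4.12-fold lower (interval 3.94 to 4.30). The intervals of these 2 folds overlapped, while that of Mmp12 lay below both. Mmp13 spans 7272514 to 7283331 and Mmp8 spans 7558456 to 7568485 on chromosome 9, both on the plus strand.

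The cluster on chromosome 9 holds 10 metalloproteinase genes over 427 kb, and Mmp13, Mmp12 and Mmp8 were the 3 with more than 13 reads in either library. Mmp3, Mmp1a and Mmp1b had 0 reads in both libraries, which allows up to 0.211 CPM in the UNE-C1 library and 0.179 CPM in the control library. Of the 10 nearest protein-coding genes in the files, 5 on each side, 5 passed the floor and none was called on the log2(CPM + 1) scale. Dync2h1 was just short of the call, with 49 reads in the UNE-C1 library and 130 reads in the control library, a log2 fold change of -0.98 and a plain ratio 2.25-fold lower (interval 1.61 to 3.19). The closest to the left, Dcun1d5, had 501 reads in the UNE-C1 library and 653 reads in the control library, with a log2 fold change of -0.14. The closest to the right, Tmem123, had 18286 and 14697 reads in the UNE-C1 and control libraries, with a log2 fold change of 0.55.

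**Figure D2:**
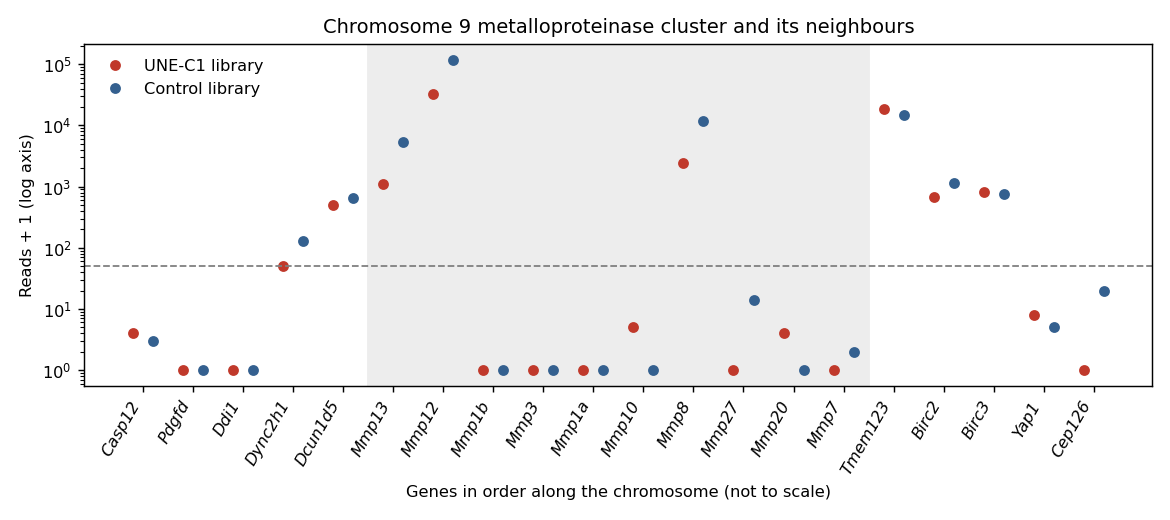
Reads plus 1 on a log axis for the 10 metalloproteinase genes of the chromosome 9 cluster (shaded) and the 5 nearest protein-coding genes on each side, in chromosome order and not to scale. Red points are the UNE-C1 library, blue points the control library, and the dashed line is the floor of 50 reads. Mmp13, Mmp12 and Mmp8 stand lower in the UNE-C1 library, and of the 5 neighbours past the floor none is called, with Dync2h1 (49 reads in the UNE-C1 library and 130 reads in the control library) closest to the mark.

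Mmp9, or gelatinase B, degrades denatured collagen and basement membrane collagen. It had 1198 reads (84.5 CPM) in the UNE-C1 library and 7150 reads (427 CPM) in the control library, and was 5.06-fold lower (interval 4.76 to 5.38). That was the largest difference among the 6 enzymes, with 98 of the 10469 genes compared having a lower log2 fold change. Mmp9 spans bases 164940780 to 164955850 of chromosome 2 (plus strand).

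Mmp8 and Mmp9 are both carried by neutrophils, and neutrophil markers were lower in the same library. Of 14 listed markers other than Mmp8 and Mmp9, 13 were in the files and 12 passed the floor, of which 10 were at least 2-fold lower and 1, Lcn2, was at least 2-fold higher. Their summed level was 3511 CPM in the UNE-C1 library and 7426 CPM in the control library, 2.12-fold lower. Most of these reads were from S100a8 and S100a9, with log2 fold changes of -1.23 and -1.31. Retnlg had 110 reads in the UNE-C1 library and 1699 reads in the control library, and Elane had 6 and 106 reads. Per neutrophil marker read, Mmp9 had 0.0241 reads in the UNE-C1 library and 0.0575 reads in the control library, 2.39-fold lower (interval 2.25 to 2.54). On the same measure Mmp8 had 0.0491 reads in the UNE-C1 library and 0.0955 reads in the control library. These values depend on which markers are summed. The CPM ratio, UNE-C1 over control, was 0.198 for Mmp9 and 0.243 for Mmp8. For the 4 markers with the largest differences it was 0.0668 (Elane), 0.0764 (Retnlg), 0.161 (Mpo) and 0.201 (Cxcr2). The other markers past the floor had ratios from 0.299 (Prtn3) to 2.44 (Lcn2). The part of neutrophils in the Mmp8 and Mmp9 differences was not tested.

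Mmp14, or MT1-MMP, is anchored in the cell membrane, cuts collagen at the cell surface and activates pro-Mmp2. It had 5577 reads (393 CPM) in the UNE-C1 library and 6247 reads (373 CPM) in the control library. The ratio was 1.05 (interval 1.02 to 1.09), and it turned below 1 with total counts, where the log2 fold change was -0.27. Within each library, Mmp14 had 4.66 reads per Mmp9 read in the UNE-C1 library and 0.874 in the control library, a comparison that does not depend on the scaling between libraries. Mmp14 spans bases 54431612 to 54445364 of chromosome 14 (plus strand).

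Mmp19, which cuts components of basement membranes, had 891 reads (62.8 CPM) in the UNE-C1 library and 1896 reads (113 CPM) in the control library. It was 1.80-fold lower (interval 1.66 to 1.96), short of the 2-fold mark, and passed it with total counts, where the log2 fold change was -1.18. The gene spans bases 128790910 to 128800824 of chromosome 10 (plus strand), and its 3' end overlaps that of Tmem198b on the other strand over 789 bases. Tmem198b had nearly the same counts, with 811 reads in the UNE-C1 library and 1774 reads in the control library. Mmp19 had 1.10 reads per Tmem198b read in the UNE-C1 library and 1.07 in the control library. The sources used here do not say whether reads were counted by strand, so the Mmp19 level is uncertain and reads of the pair cannot be told apart.

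Mmp12 made up most metalloproteinase reads in both libraries, at 73.0% (exact binomial interval 72.6% to 73.4%) of the reads on 23 Mmp genes in the UNE-C1 library and 78.1% (77.9% to 78.3%) in the control library. The share of Mmp14 was 12.4% (12.1% to 12.7%) in the UNE-C1 library and 4.08% (3.98% to 4.18%) in the control library. Mmp9 had 2.66% and Mmp8 5.43% of these reads in the UNE-C1 library, against 4.67% and 7.75% in the control library. The 6 enzymes together held 97.8% of the Mmp reads in the UNE-C1 library and 99.4% in the control library. In sum they stood at 3104 CPM in the UNE-C1 library and 9095 CPM in the control library.

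**Figure D3:**
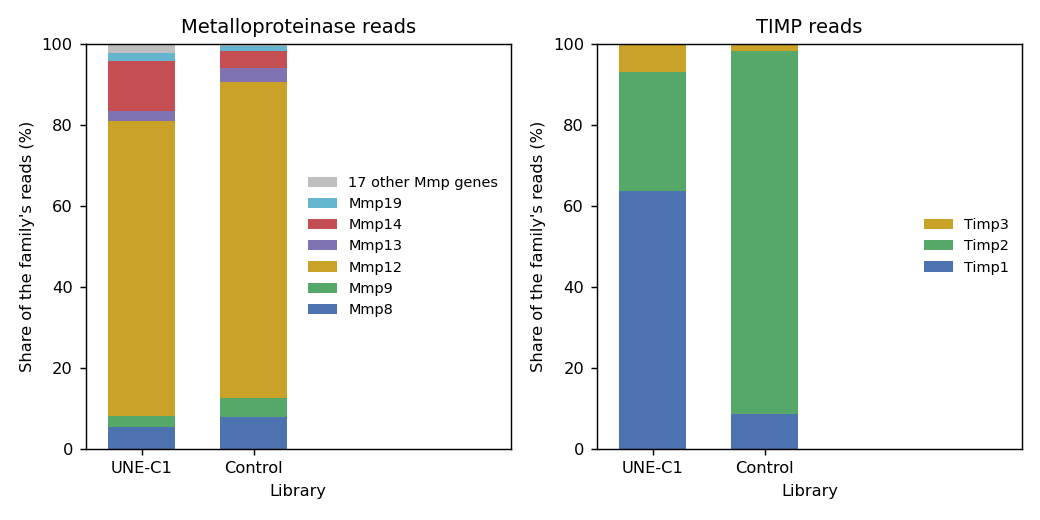
Share of each gene among all metalloproteinase reads (left, 23 genes) and all TIMP reads (right), in percent, with 1 bar per library. Mmp12 holds 73.0% of the metalloproteinase reads in the UNE-C1 library and 78.1% in the control library. Timp1 holds 63.6% of the TIMP reads in the UNE-C1 library, where the control library has 89.6% on Timp2.

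The 3 inhibitors differed in direction. Timp1, a soluble inhibitor that also binds pro-Mmp9, had 1665 reads (117 CPM) in the UNE-C1 library and 451 reads (27.0 CPM) in the control library. It was 4.36-fold higher (interval 3.92 to 4.84), and 290 of the 10469 genes compared had a higher log2 fold change. It spans bases 20870166 to 20874735 of the X chromosome (plus strand), within Syn1 on the opposite strand. Syn1 had 119 reads in the UNE-C1 library and 110 reads in the control library.

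Timp2, which inhibits these enzymes and also joins Mmp14 and pro-Mmp2 in the complex that activates pro-Mmp2, had 772 reads (54.4 CPM) in the UNE-C1 library and 4690 reads (280.3 CPM) in the control library. It was 5.15-fold lower (interval 4.77 to 5.56), the reverse of Timp1. Timp2 spans bases 118301069 to 118355740 of chromosome 11 (minus strand). Cep295nl lies within it on the same strand, over 10141 bases, and is not among the symbols of the count files.

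Timp3, an inhibitor that stays bound to the matrix and also blocks Adam17, had 181 reads (interval 156 to 209) in the UNE-C1 library and 94 reads in the control library. These correspond to 12.8 CPM in the UNE-C1 library and 5.62 CPM in the control library, the lowest level of the 10 genes in each. The ratio was 2.27 (interval 1.76 to 2.95), and the log2 fold change of 1.06 was just past the 2-fold mark. With total counts it was 0.75 and with a pseudocount of 5 CPM 0.74, so the call of Timp3 was lost under both. Timp3 spans bases 86300372 to 86349506 of chromosome 10 (plus strand), inside Syn3 on the opposite strand. Syn3 had 64 reads in the UNE-C1 library and 67 reads in the control library.

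The TIMP reads were therefore made up differently. Timp1 had 63.6% of them (interval 61.7% to 65.4%) in the UNE-C1 library and 8.62% (7.87% to 9.41%) in the control library. Timp2 had 29.5% in the UNE-C1 library and 89.6% in the control library. Timp4 had 0 reads in both. Timp1 had 2.16 reads per Timp2 read in the UNE-C1 library and 0.0962 in the control library, a 22.4-fold higher ratio (interval 19.7 to 25.5).

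Ratios of enzyme to inhibitor reads within 1 library do not depend on the scaling between libraries. The 6 enzymes had 16.8 reads per TIMP read in the UNE-C1 library and 29.1 in the control library, and the ratio of the 2 was 0.579 (interval 0.551 to 0.607, Wald on the log scale). Both sums were lower in the UNE-C1 library. The enzymes summed to 3104 CPM there and 9095 CPM in the control library, and the 3 TIMPs to 185 CPM and 313 CPM. Mmp9 had 0.720 reads per Timp1 read in the UNE-C1 library and 15.9 in the control library, 22.0-fold lower (interval 19.5 to 24.9). Mmp14 and its partner Timp2 went the other way, with 7.22 Mmp14 reads per Timp2 read in the UNE-C1 library and 1.33 in the control library, 5.42-fold higher (interval 4.99 to 5.90). These are ratios of transcripts and say nothing of protein or activity.

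Fn1 had the largest difference of the 10 genes. It had 512 reads (36.1 CPM) in the UNE-C1 library and 6045 reads (361 CPM) in the control library, 10.0-fold lower (interval 9.14 to 11.0). Its log2 fold change of -3.29 was the 24th lowest of the 10469 genes compared. Fn1 spans bases 71585520 to 71653200 of chromosome 1 (minus strand). Fibroblasts also make fibronectin, and of 12 listed stromal markers 2 passed the floor, Dcn and Acta2. Dcn had 161 reads in the UNE-C1 library and 6 reads in the control library and was called higher, the direction opposite to Fn1. Acta2 had 253 reads in the UNE-C1 library and 230 reads in the control library. Col1a1 had 8 and 6 reads in the UNE-C1 and control libraries, Col3a1 had 6 and 4, and Pdgfra had 0 in both. Thy1, also under the floor, had 5 and 32 reads, a log2 fold change of -1.11 in the direction of Fn1. Pdgfrb had 5 and 9 reads. Cxcl12 (14 and 6 reads), Lepr (11 and 6), Postn (3 and 0), and Col1a2 and Lum (2 and 0 each) were also under the floor. The counting intervals of their ratios all included 1, so their direction is not known. The part of stromal cells in the Fn1 difference was not tested. The list summed to 33.1 CPM in the UNE-C1 library and 17.9 CPM in the control library.

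**Figure D4:**
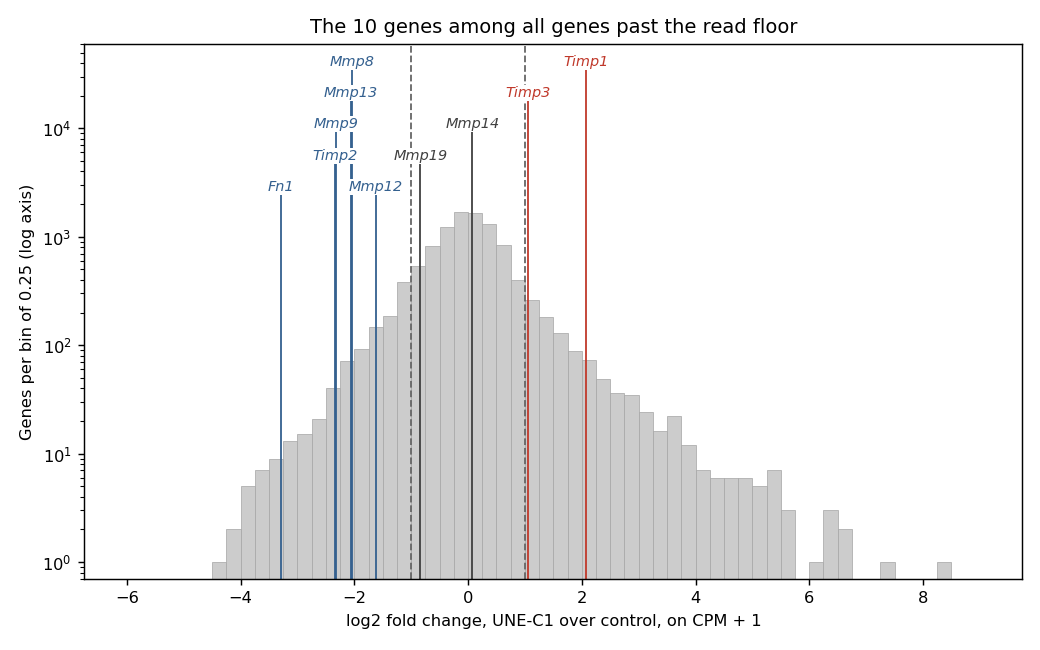
Distribution of log2 fold changes on CPM + 1, UNE-C1 over control, for the 10469 genes compared (grey, number of genes per bin on a log axis), with the 10 genes as vertical lines. Dashed lines are the 2-fold marks. Fn1 at -3.29 is the lowest of the 10 and Timp1 at 2.08 the highest.

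Macrophage transcripts moved both ways beside Mmp12 and Fn1, with more lower than higher. Of 13 monocyte and macrophage markers, 12 passed the floor, with 6 at least 2-fold lower and 3 at least 2-fold higher. The median log2 fold change of the 12 was -0.86, with 8 below 0 and 4 above. With total counts the median was -1.20, and 7 were called lower and 3 higher. The sum of the 13 markers was 4241 CPM in the UNE-C1 library and 4611 CPM in the control library. The mannose receptor Mrc1, with 80 reads in the UNE-C1 library and 1291 reads in the control library, was the lowest, and the Fc receptor Fcgr1, with 5629 and 553 reads in the UNE-C1 and control libraries, the highest. Of 9 osteoclast genes, a lineage that uses Mmp9 and Mmp14, 7 passed the floor, with 3 lower (Dcstamp, Ocstamp and Atp6v0d2) and 2 higher (Acp5 and Ctsk, neither of them called with total counts). Their sum was 738 CPM in the UNE-C1 library and 1229 CPM in the control library. Of 12 mast cell, basophil and eosinophil markers, 10 passed the floor, 3 were lower and none higher, with a sum of 955 CPM in the UNE-C1 library and 1384 CPM in the control library. The part of these cell types in the differences was not tested.

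Of the 17 other metalloproteinase genes, 4 passed the floor and 1, Mmp23, was called lower, with 12 reads in the UNE-C1 library and 78 reads in the control library. Gelatinase A, Mmp2, had 331 reads in the UNE-C1 library and 231 reads in the control library, with a ratio of 1.69 (interval 1.42 to 2.01). The membrane-anchored Mmp25 and Mmp24 had log2 fold changes of 0.64 and -0.06. The median of the 4 was 0.29, and it turned to -0.03 with total counts and to -0.06 with no floor. Among 15 Adam and Adamts genes, a related family of metalloproteinases, 7 passed the floor with a median of -0.66. Adamts10 was called lower (log2 fold change -1.74) and none was called higher. Adam9 and Adam10 stood at -0.98 and -0.73 and were called lower with total counts, which gave 3 lower calls in place of 1. Adam8, which held most of the list's reads, had 11052 reads in the UNE-C1 library and 8049 reads in the control library, with a log2 fold change of 0.69, and Adam17, the sheddase of TNF, stood at -0.28. The list summed to 1222 CPM in the UNE-C1 library and 1056 CPM in the control library.

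The plasminogen system, which makes plasmin, an activator of pro-metalloproteinases, had 8 of the 10 genes reported here past the floor, 3 of them called higher and 2 lower. The median was -0.02, and -0.36 with total counts or 0.12 with no floor. Plau, the urokinase activator, had 107 reads in the UNE-C1 library and 664 reads in the control library, 5.26-fold lower. Its receptor Plaur had a log2 fold change of -1.27. The other activator, Plat, had 78 reads in the UNE-C1 library and 14 reads in the control library, and Serpine2, an inhibitor of plasminogen activators, a log2 fold change of 1.66. Anxa2, at 1.05, was also called higher, but not with total counts (0.71).

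Of 15 genes whose proteins bind, activate or clear metalloproteinases, 9 passed the floor, 3 were higher and none lower (median 0.83). The 3 were Lcn2, which forms a complex with Mmp9 in human neutrophils and was 2.44-fold higher (interval 2.35 to 2.54), Bsg, an inducer of metalloproteinases, at 2.26-fold (2.13 to 2.41), and Cav1 at 4.40-fold (4.10 to 4.72). Furin, which activates pro-Mmp14, had a log2 fold change of 0.97. Lcn2 is also on the neutrophil list. With total counts Lcn2 and Bsg were no longer called, at log2 fold changes of 0.94 and 0.83. Cd63 had the most reads of the list, 18643 in the UNE-C1 library and 39481 in the control library. It stood at -0.84, and with total counts it was called lower, at -1.19. The median of the list was 0.49 with total counts and 0.10 with no floor.

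Of 12 genes for fibronectin receptors and their partners, 9 passed the floor, 3 were higher and 2 lower. The median was 0.29, and -0.06 with total counts. Itga5, which pairs with Itgb1 as the main fibronectin receptor, had 395 reads in the UNE-C1 library and 130 reads in the control library, 3.58-fold higher (interval 2.93 to 4.40). Itgb1 itself was the median gene of the list. Sdc4, a co-receptor, had 1032 reads in the UNE-C1 library and 304 reads in the control library, with a log2 fold change of 1.94. The cross-linking enzyme Tgm2, which binds fibronectin, was 4.89-fold higher (4.73 to 5.05). Itgb3 and Itgb5, which pair with Itgav, had log2 fold changes of -1.57 and -1.60.

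Most other matrix genes past the floor did not follow Fn1. Of 25 listed, 9 passed the floor, 5 were higher and 1 lower, with a median of 1.03. The median was 0.71 with total counts and 0.19 with no floor. Tgfbi, an adhesive matrix protein, had 20823 reads in the UNE-C1 library and 6030 reads in the control library, 4.07-fold higher (interval 3.96 to 4.19). The proteoglycan Vcan was 6.30-fold higher (interval 5.50 to 7.24), and the proteoglycan Dcn had 161 reads in the UNE-C1 library and 6 reads in the control library. Col4a2 and Lamc1, of basement membranes, were the other 2 called higher, Lamc1 (1.03) not with total counts (0.71). Tnc, which encodes tenascin C, was the 1 called lower, with 4 reads in the UNE-C1 library and 97 reads in the control library. Of 9 serine and cysteine proteases that act on matrix, 7 passed the floor, with Elane and Prtn3 called lower, Ctsk called higher and a median of -0.53. With a floor of 200 reads Elane and Prtn3 were left out, no gene was called lower and the remaining genes had a median of 0.61. Ctsk was not called under scaling to total counts. Ctss, or cathepsin S, had 139666 reads in the UNE-C1 library and 93935 reads in the control library, with a log2 fold change of 0.81.

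**Figure D5:**
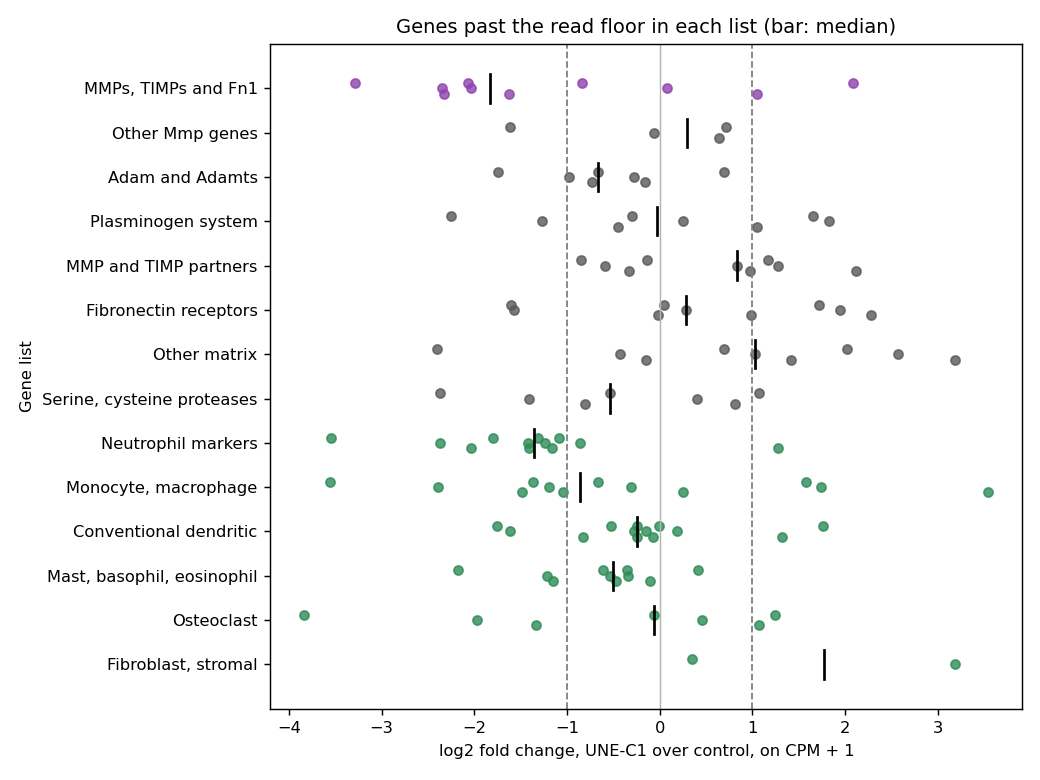
Log2 fold change on CPM + 1, UNE-C1 over control, of each gene past the floor of 50 reads, by list, with 1 point per gene, a black bar at the list's median and dashed lines at the 2-fold marks. The 10 genes are purple, the related lists grey and the cell type markers green. The median is -1.83 for the 10 genes and -1.36 for the neutrophil markers, and the other matrix list has a median of 1.03.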

How the data were processed

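Each library has 1 deposited file of raw counts by gene symbol, whole numbers that show no normalization by the authors. Per the labels' protocols, 500 ng of total RNA went into each QuantSeq 3'-end library. Bowtie2, edgeR and mm10 stand in the submitters' processing notes with no version and no role. The sources used here give no counting tool, annotation, strand setting or treatment of multiply mapped reads. The 35 symbols that occur more than once were summed. Rn45s, a ribosomal RNA precursor, took 3.98% of the reads in the UNE-C1 library and 5.21% in the control library and was kept.

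CPM used effective library sizes from edgeR 4.0.16 (TMM factors 0.888 for the UNE-C1 library and 1.13 for the control library; R 4.3.3). Fold changes are UNE-C1 over control. Log2 values are log2 of the ratio of CPM plus a pseudocount of 1, which understates genes with few reads, and "-fold" values are plain CPM ratios. Intervals (scipy 1.17.1) cover counting error only, and no molecular identifiers are named. A count of 0 allows up to 3 reads. No p-value or count model was used. The procedure was run on simulated counts with known fold changes and Poisson error only. These hold no spread between replicates, so they do not test the calls made here. Alternatives were total counts, DESeq2 1.42.0 size factors, pseudocounts of 0.1 and 5 CPM, no floor and a floor of 200 reads. The rule names all 10 genes and, of each list, up to 4 genes past the floor with the largest log2 fold change, and allows genes counted as changed. Some marker genes under it (Ccr2, Ly6c2, Kit, Cpa3, Siglecf, Prg2) are given only through their lists' counts and sums. Others named with values (Col1a1, Col1a2, Col3a1, Pdgfra, Pdgfrb, Thy1, Cxcl12, Lepr, Postn, Lum, Adam17, Itgb1, S100a8, S100a9, H2-Aa, H2-Ab1, Cd74, Flt3, Cd63, Dcun1d5, Dync2h1, Tmem123 and genes overlapping a member) were chosen after their values were seen. The genes and lists were chosen with earlier results of these data known. Gene positions are GENCODE M21's. Motif letters were searched in the 250 bases before each RefSeq start. Some results are not reported here.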

Additional observations from a re-analysis of the deposited data

How the results depend on the processing

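Of the 10 genes, Mmp8, Mmp9, Mmp12, Mmp13, Timp2 and Fn1 stayed at least 2-fold lower and Timp1 at least 2-fold higher under all 6 alternatives. With total counts, Mmp19 was also called lower and Timp3 was not called, and Mmp14 turned below 0. The count of genes called higher was 1 with total counts, with a pseudocount of 5 CPM and with a floor of 200 reads, since Timp3 was lost, by its size under the first 2 and by its 181 reads under the last. Over all genes, 1693 were called lower with total counts, 484 with a pseudocount of 5 CPM and 579 with a floor of 200 reads, against 986. Without Mmp12 in the sum, the enzyme to TIMP ratio of UNE-C1 over control was 0.687, and without Mmp8 and Mmp9 it was 0.606. Of the listed related genes and markers, 7 lost a call of higher and 7 gained a call of lower with total counts. No paired analysis was possible because each group had 1 library, and no library could be left out. Depth limits Timp3 most, whose counting interval spans 1.76 to 2.95.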
